A study of Mus musculus with 6 samples.

Results

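The genes described here form the layer between Toll-like receptors and the kinase TAK1: the TIR adaptors Myd88, Ticam1, Ticam2 and Tirap, the kinases and pseudokinases Irak1, Irak2, Irak3 and Irak4, the ubiquitin ligase Traf6, and the co-receptor Cd14. They were chosen by name, taking every probe set whose platform gene symbol was a listed member. Of the 10 genes, 8 had a probe set, and together they held 13 of the 45037 probe sets tested. The expression of Irak4 and Ticam2 was not analysed here. RNA came from CD11c+ dendritic cells, antigen-presenting cells that were sorted by flow cytometry from the spleens of C57Bl/6 mice, and each sample was hybridised to 1 Affymetrix array. The wild-type group (genotype WT, 3 samples) and the knockout group (genotype Map3k7CreER, 3 samples) had both received tamoxifen in vivo for 3 days, which induces the Cre recombinase to delete Map3k7, the gene of TAK1, in the knockout group. The promoter that drives the Cre, the age of the mice and whether each sample is a different animal are not given in the sources used here. The p-values therefore speak for the spread among these 6 arrays, which may be technical. Loss of Map3k7 in the dendritic cells, loss in other cells of the mouse and the presence of the Cre itself cannot be told apart.

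Toll-like receptors sense microbial molecules and signal through TIR domains, which recruit adaptors that carry the same fold. Myd88 gathers the IRAK proteins into an oligomer, Irak4 and Irak1 pass the signal to Traf6, and the ubiquitin chains that Traf6 builds activate the TAK1 complex, which switches on the IKK and MAP kinase cascades. Ticam1, also called TRIF, serves Tlr3 and internalised Tlr4 in a branch that leads to interferon genes. In dendritic cells this layer links microbial sensing to cytokine production and maturation.

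The targeted gene went with the labels on all arrays. Map3k7 was lower on 3 of its 5 probe sets, with -2.60 on the log2 scale for the brightest (limma adjusted p = 0.00128), and the other 2 were dim in both groups. The position of the probes against the deletion was not analysed here. The median probe set had a log2 signal of 3.77 to 3.81 on each array, and signals about that low may come from unexpressed transcripts. Dendritic cell markers were bright in both groups, with Itgax (CD11c) at 10.82 to 11.31 and the invariant chain Cd74 at 12.99 to 13.10. Markers of other lymphoid cells were uneven. The B cell genes Ms4a1 and Cd22 read 7.88 to 8.88 and 8.04 to 9.29, well above the array median, while Cd79a read 3.65 to 3.89. The T cell gene Cd3e read 5.16 to 5.81 and Cd3d 3.54 to 4.04. Of 13 measured dendritic cell marker genes 0 passed on their brightest probe set in limma, and 5 had an unadjusted p under 0.05. The lineage factor Zbtb46 stood at -0.75 there (limma adjusted p = 0.0621), and 2 of its 4 probe sets passed as lower. Of the other lists, 0 of 7 T and NK cell and 0 of 6 plasmacytoid dendritic cell markers passed (1 and 0 at an unadjusted p under 0.05). Cd22 fell (-0.87) among 7 B cell markers, and the globin Hbb-b2 fell (-3.01) among 6 erythroid markers, on 1 of its 3 probe sets. In each of these 2 lists 3 genes had an unadjusted p under 0.05, all lower. The globin Hba-a1 stood at -3.57 (limma adjusted p = 0.0713). Summed signals on a linear scale were 1019 to 1191 in wild-type and 664 to 776 in knockout samples for the B cell list. For the erythroid list they were 666 to 2637 and 119 to 271. When each array was left out in turn, Cd22 passed in 1 of 6 fits (without knockout replicate 1) and Hbb-b2 in 2 (without wild-type replicate 3 or knockout replicate 1). Fewer cells of a type and less RNA per cell cannot be told apart in such bulk samples.

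Of the 8 measured genes of this layer, Cd14 and Myd88 rose in knockout cells, 0 fell and 6 did not pass the test (limma). At an unadjusted p under 0.05 the count over their 13 probe sets was also 2. The share of all probe sets under that cut was not counted, here or for the lists. It is a common value: an Irak1 probe set with an unadjusted limma p of 0.0541 ranked 5803 by p among the 45037. Cd14 rose 4.25-fold (95% interval 2.92 to 6.18) and Myd88 rose 2.14-fold (95% interval 1.57 to 2.90). The other TIR adaptors, the IRAK genes and Traf6 stood between -0.37 and 0.29 on the log2 scale. Counted as probe sets, 2 of 13 passed, or 15.4%, beside 1.19% of all probe sets in either direction and 0.804% as higher. Counted as genes by their brightest probe set, 2 of 8 passed, beside 1.67% of the 17097 genes on the array in either direction and 1.08% as higher. The median difference over the 8 genes was 0.12, and that over all genes was -0.02. The groups did not overlap on 4 of the 13 probe sets, all 4 higher in the knockout. Among all probe sets 17.5% had groups that did not overlap, and 8.64% of all probe sets did so with the knockout higher.

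**Figure D1:**
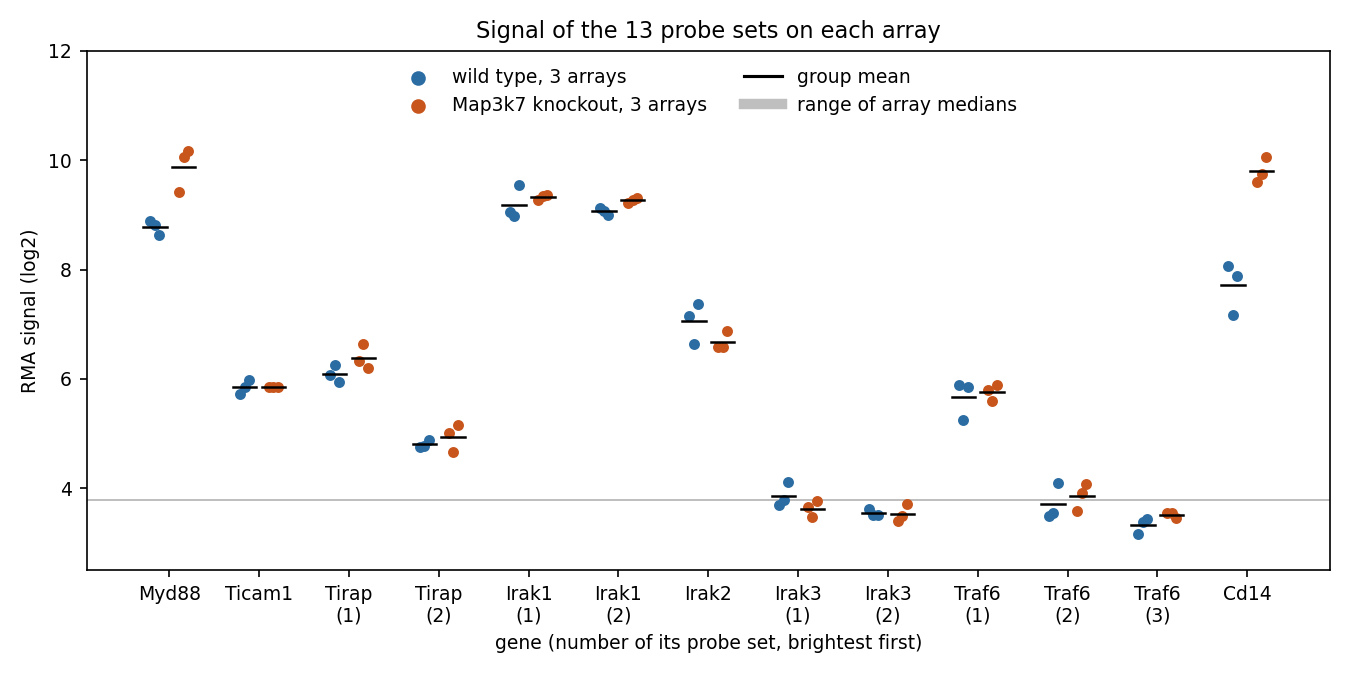
RMA signal on a log2 scale (vertical axis) of the 13 probe sets on each array, with wild-type arrays in blue, knockout arrays in orange and black bars for group means; the grey band is the range of the array medians. The knockout arrays lie above the wild-type arrays by the widest gaps for Cd14 and Myd88, while both Irak3 probe sets lie near the band in both groups.

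Cd14 is a membrane protein that captures lipopolysaccharide and hands it to the complex of Tlr4 and Ly96. Its single probe set read 8.07, 7.17 and 7.89 in the wild-type samples (log2 signal, replicates 1 to 3) and 9.60, 9.74 and 10.05 in the knockout samples. Every knockout array lay above every wild-type array, and wild-type replicate 2 was the lowest of all. The group means were 7.71 ± 0.48 and 9.80 ± 0.23 (SD, n = 3), a difference of 2.09 with a standard error of 0.23 (95% interval 1.55 to 2.63, limma adjusted p = 0.00873, Benjamini-Hochberg over the whole array). Among the 17097 genes Cd14 had the 63rd smallest p-value and the 31st largest increase. When each array was left out in turn its difference ran from 1.82 to 2.27, and it passed in 5 of 6 fits, but not without knockout replicate 2 (2.12, limma adjusted p = 0.0605).

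The receptor partners of Cd14 were named after their values were seen. Tlr4, the signalling receptor for lipopolysaccharide, was dim in both groups, at 4.09 to 4.14 in wild-type samples and 4.18 to 4.37 in knockout samples, which did not overlap. Its difference of 0.13 did not pass (95% interval up to 0.35, limma adjusted p = 0.669). Ly96, the lipopolysaccharide-binding subunit also called MD-2, stood at -0.21 (limma adjusted p = 0.656), and its groups overlapped. Tlr2, the receptor for bacterial lipoproteins that also uses Cd14, read 8.66, 8.26 and 8.59 in wild-type and 8.88, 9.24 and 9.34 in knockout samples, which did not overlap. Its difference of 0.65 did not pass over all probe sets (limma adjusted p = 0.115). The change of Cd14 exceeded that of Tlr4 by 1.95 (SE 0.33), that of Ly96 by 2.30 (SE 0.33) and that of Tlr2 by 1.43 (SE 0.17). For each of these the exact two-sided permutation p was 0.1, the smallest that 3 against 3 arrays can give, so the design cannot reach 0.05 here.

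Cd14 is also made by macrophages, monocytes and neutrophils, and markers of those cells were measured on the same arrays. Of 17 macrophage markers 5 rose and 0 fell in limma (9 and 1 at an unadjusted p under 0.05), with a median of 0.68 over the list. They were the mannose receptor Mrc1 (2.31, limma adjusted p = 0.00658), the scavenger receptor Cd163 (1.58), the secreted scavenger protein Cd5l (1.51), the uptake receptor Mertk (1.16) and transferrin, Trf (0.97). When each array was left out in turn Mrc1 passed in all 6 fits, Cd163 in 5 (not without knockout replicate 2), Mertk in 3, Cd5l in 2 and Trf in 1. The summed signal of the list on a linear scale was 2603 to 2934 in wild-type and 3301 to 4723 in knockout samples. Of the markers of splenic macrophages, Marco, Siglec1 and Timd4 lay near the array median, at 3.41 to 4.05. Others did not pass either but were well above it on all 6 arrays. The surface receptor Adgre1 read 8.96 to 9.56, the iron exporter Slc40a1 7.72 to 8.57 and the red pulp macrophage factor Spic 6.99 to 7.32. Adgre1 stood at -0.28 (limma adjusted p = 0.463). Hmox1 was the 1 marker lower at an unadjusted p under 0.05, at -0.53 (limma adjusted p = 0.134), and its groups did not overlap. Of the 17 macrophage markers 14 had a positive difference. Of 8 monocyte markers 0 passed (4 at an unadjusted p under 0.05), and their summed signal was 4876 to 5430 in wild-type and 3243 to 4835 in knockout samples. Of 11 neutrophil markers 0 passed (5 at an unadjusted p under 0.05), and their summed signal was 252 to 390 in wild-type and 420 to 1544 in knockout samples. The calprotectin genes S100a8 and S100a9 stood at 2.28 and 1.53 (limma adjusted p = 0.147 and 0.343), with S100a8 at 4.81 to 6.10 in wild-type and 6.83 to 9.29 in knockout samples. Such linear sums follow the brightest genes, here S100a8 and S100a9 in the knockout samples, and Lyz2 and Ms4a4c among the monocyte markers. The primary granule gene Mpo lay between 3.42 and 3.79 on all 6 arrays. Elane, Ngp, Camp, Ltf and Cxcr2 lay between 3.25 and 4.77. Of the remaining neutrophil markers, Csf3r and Lcn2 stood at 0.49 and 0.73, and Mmp9 at -0.77.

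The knockout arrays did not rank alike on Cd14 and on these lists, but the wild-type arrays did. Wild-type Cd14 read 8.07, 7.17 and 7.89 (replicates 1 to 3). In the same order the summed wild-type signals were 2934, 2603 and 2893 for macrophage markers. They were 390, 252 and 365 for neutrophil and 5430, 4876 and 5115 for monocyte markers. Knockout replicate 3 had the highest Cd14 signal of the 6 arrays (10.05) and the lowest summed macrophage signal of the knockout arrays (3301, beside 4723 and 4445). On that array the macrophage complement genes C1qa and C1qb read 8.42 and 8.37, beside 8.15 to 8.26 and 8.19 to 8.41 in wild-type samples. The 5 macrophage markers that rose lay above every wild-type sample on that array too, with Mrc1 at 8.52 (wild type 5.63 to 6.60), Cd163 at 5.01 (3.58 to 3.99) and Cd5l at 8.29 (7.13 to 7.39). The summed neutrophil signal was highest in knockout replicate 2 (1544) and was 420 in replicate 3. How much of the Cd14 difference comes from such cells was not tested.

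Among the TIR adaptors, Myd88 rose and the other 2 measured did not pass. Myd88, used by all Toll-like receptors except Tlr3 and by the receptors for interleukin-1 and interleukin-18, read 8.88, 8.82 and 8.64 in wild-type and 9.42, 10.05 and 10.16 in knockout samples on its single probe set. The groups did not overlap, and knockout replicate 1 was the lowest of the knockout arrays. The means were 8.78 ± 0.12 and 9.88 ± 0.40 (SD, n = 3), a difference of 1.1 with a standard error of 0.19 (95% interval 0.65 to 1.54, limma adjusted p = 0.0436). Myd88 had the 258th smallest p-value and the 133rd largest increase among the genes. The call was close to the threshold: when each array was left out in turn the difference ran from 0.95 to 1.32, but it passed in 1 of 6 fits, the one without knockout replicate 1 (1.32, limma adjusted p = 0.00539). In the other 5 fits the adjusted p lay between 0.0995 and 0.192.

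**Figure D2:**
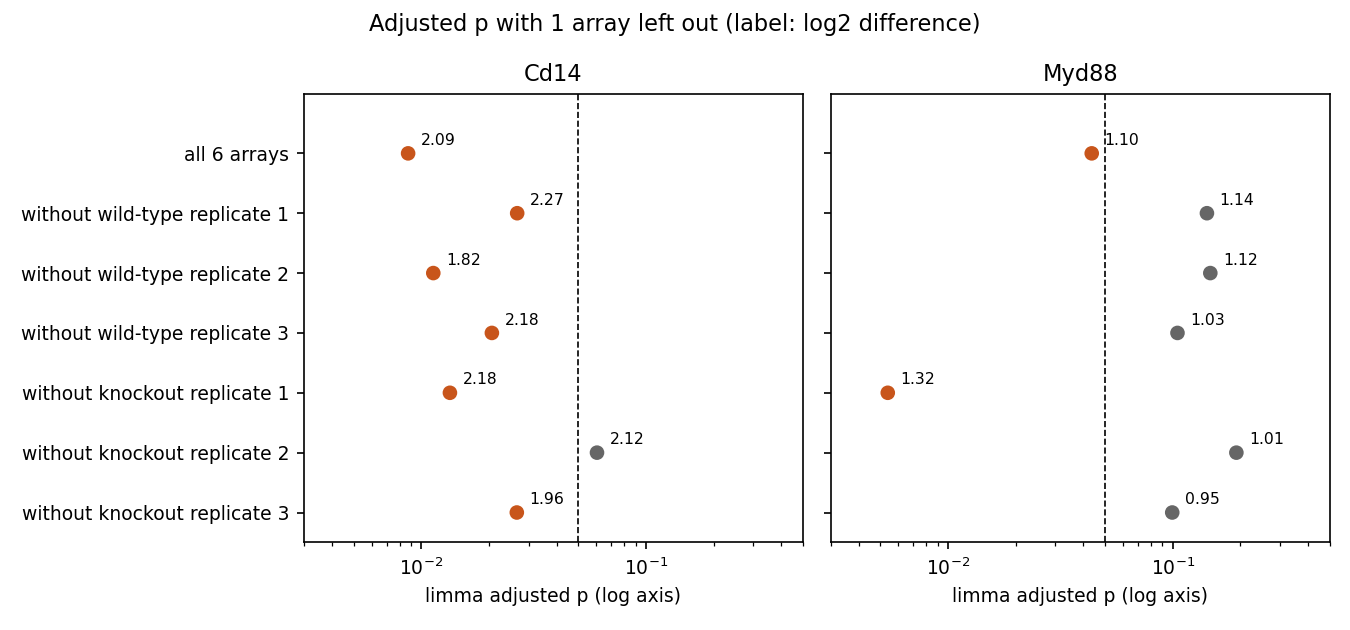
Limma adjusted p (horizontal log axis, dashed line at 0.05) for Cd14 and Myd88 with all 6 arrays and with each array left out, the number at each point being the log2 difference. Cd14 stays left of the line except without knockout replicate 2, and Myd88 crosses to the right in 5 of 6 fits while its difference stays between 0.95 and 1.32.

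Tirap, the sorting adaptor that brings Myd88 to Tlr2 and Tlr4 at the membrane, had 2 probe sets. The brighter read 6.08, 6.26 and 5.94 in wild-type and 6.32, 6.63 and 6.20 in knockout samples, and the groups overlapped. Its difference was 0.29 (SE 0.14, 95% interval -0.04 to 0.61, limma adjusted p = 0.478), and the second stood at 0.14 (limma adjusted p = 0.785). Ticam1 read 5.72, 5.86 and 5.98 in wild-type samples and 5.85 in each of the 3 knockout samples. This is a difference of -0.01 with an interval from -0.24 to 0.22 (limma adjusted p = 0.989), so a change of the size of that in Myd88 lies outside the interval. The Ticam1 probe set is of the kind (name ending in s_at) that can match several transcripts.

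The comparisons of Myd88 with members that did not pass were also chosen after the values were seen. The change of Myd88 exceeded that of Ticam1 by 1.1 (SE 0.27), that of Tirap by 0.81 (SE 0.26), that of Irak1 by 0.96 (SE 0.32), that of Irak2 by 1.47 (SE 0.32) and that of Traf6 by 1.00 (SE 0.35). In each case the per-array values of the groups did not overlap, and the exact two-sided permutation p was 0.1, the smallest possible with 3 against 3 arrays. These 5 comparisons and the 3 with Cd14 make 8, and the Benjamini-Hochberg adjusted p was 0.1 for each. In all 8 the standard error was taken from the per-array differences and not from limma. Genes that passed were set against genes that did not, so separated groups lend no further support. Irak3 was not compared.

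The sequence before the Myd88 start is shown because Myd88 is the adaptor that rose, and that of Irak1, the next protein downstream with a bright probe set, because it did not pass. The windows run from 250 bases before to 50 bases after the transcription start on the gene's own strand, as RefSeq gives them for GRCm38.p6, at chr9:119339969-119340268 on the minus strand for Myd88 and chrX:74023872-74024171 on the minus strand for Irak1 (its first of 2 windows). Capitals mark matches, on either strand, to the 7 motifs searched, which were chosen after the values were seen.
Myd88: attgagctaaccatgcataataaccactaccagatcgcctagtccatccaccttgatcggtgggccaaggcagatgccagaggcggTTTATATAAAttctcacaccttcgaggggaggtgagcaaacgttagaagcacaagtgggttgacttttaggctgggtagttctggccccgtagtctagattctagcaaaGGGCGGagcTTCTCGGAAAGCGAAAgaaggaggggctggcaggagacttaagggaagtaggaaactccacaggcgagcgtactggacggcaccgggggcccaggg
Irak1: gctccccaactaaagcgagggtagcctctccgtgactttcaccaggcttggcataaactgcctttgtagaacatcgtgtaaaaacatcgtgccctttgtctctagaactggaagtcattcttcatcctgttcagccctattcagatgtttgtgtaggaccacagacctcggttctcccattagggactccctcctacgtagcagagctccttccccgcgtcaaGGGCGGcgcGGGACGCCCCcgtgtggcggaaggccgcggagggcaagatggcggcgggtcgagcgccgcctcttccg

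The Myd88 window held a match to the interferon response element at -40 to -31, which 3.44% of all 32851 windows of this length hold, counted from the start as +1. It overlapped a STAT motif (TTCNNNGAA) at -46 to -38, held by 8.30% of windows. An Sp1 box (GGGCGG) lay at -55 to -50 and is common, in 35.7% of windows. Overlapping TATA motifs (TATAAA) on opposite strands lay between -164 and -155, a motif in 13.6% of windows. The NF-kB motif, in 8.46% of windows, had no match in the Myd88 window and 1 in the Irak1 window, at -18 to -9. The AP-1 motif (TGANTCA, 7.81% of windows) and the C/EBP motif (TTGCNNAA, 10.8% of windows) matched in neither window. Windows were given for 8 of the 10 genes, which include Irak4 but not Cd14 or Ticam2, and the interferon response element and the STAT motif were found in Myd88 alone among them. A match describes letters only.

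The IRAK genes did not pass. Irak1, the kinase that hands the signal to Traf6, was bright on both probe sets. On the first it read 9.05, 8.97 and 9.54 in wild-type and 9.27, 9.34 and 9.37 in knockout samples, with a difference of 0.14 (95% interval -0.22 to 0.49, limma adjusted p = 0.819). On the second it read 9.12, 9.07 and 9.0 in wild-type and 9.22, 9.27 and 9.31 in knockout samples. The groups did not overlap on this probe set, but the difference of 0.20 (SE 0.09, 95% interval -0.00448 to 0.40) did not pass (limma adjusted p = 0.42). Both intervals end below the Myd88 difference.

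Irak2, a pseudokinase that sustains late signalling through Traf6, had the most negative value in this layer. It read 7.15, 6.64 and 7.37 in wild-type and 6.59, 6.58 and 6.87 in knockout samples, and knockout replicate 3 lay above wild-type replicate 2. The difference was -0.37 (SE 0.19, 95% interval -0.81 to 0.06, limma adjusted p = 0.492), and with 1 array left out it ran from -0.58 to -0.22 and passed in 0 of 6 fits. Irak3, also called IRAK-M, restrains the pathway and is made mainly by monocytes and macrophages. Its 2 probe sets lay at 3.40 to 4.12 over the 6 arrays, near the array median, so a level could not be told from background, and they differed by -0.24 and -0.01 between the groups (limma adjusted p = 0.58 and 0.984).

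Traf6, the ubiquitin ligase that activates TAK1, had 3 probe sets. The brightest read 5.89, 5.24 and 5.86 in wild-type and 5.80, 5.59 and 5.89 in knockout samples, with wild-type replicate 2 apart from the others of its group. The difference was 0.10 (SE 0.18, 95% interval -0.33 to 0.53, limma adjusted p = 0.903), and without wild-type replicate 2 it was -0.11. The other probe sets were dim, at 3.17 to 4.09, and stood at 0.15 and 0.18 (limma adjusted p = 0.846 and 0.571). On the dimmest the groups did not overlap.

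**Figure D3:**
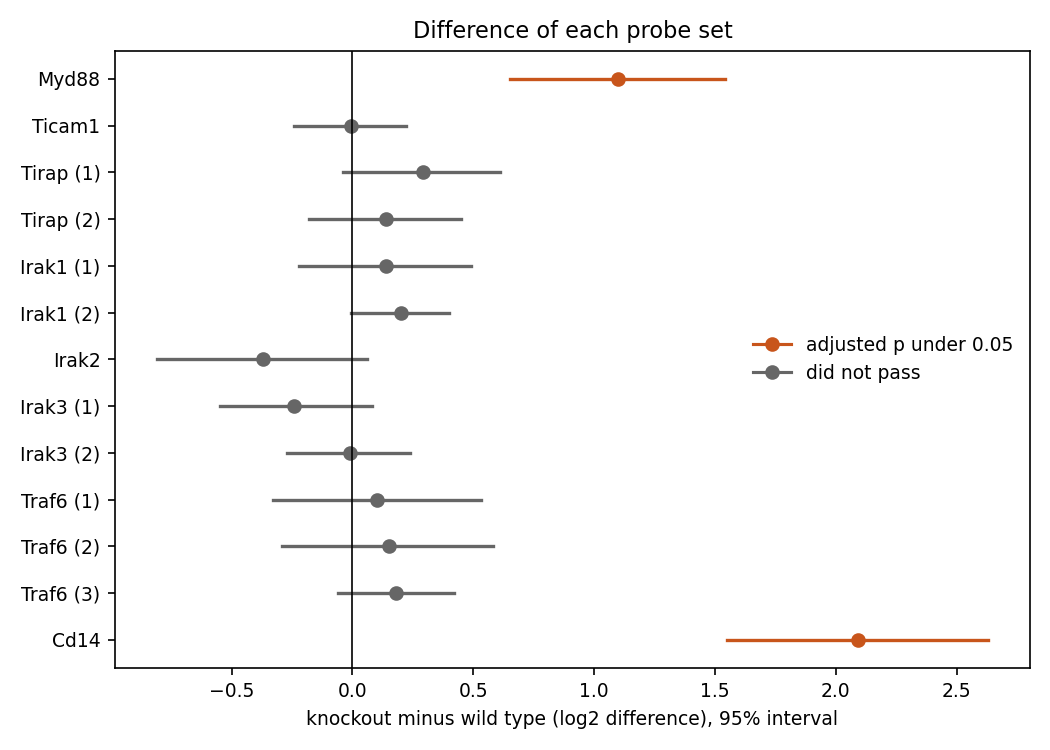
Knockout minus wild type on the log2 scale (horizontal axis) with 95% intervals from limma for the 13 probe sets, orange where the adjusted p is under 0.05 and numbered by brightness within a gene. The intervals of Cd14 (1.55 to 2.63) and Myd88 (0.65 to 1.54) lie to the right of 0, and the other 11 include 0.

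**Figure D4:**
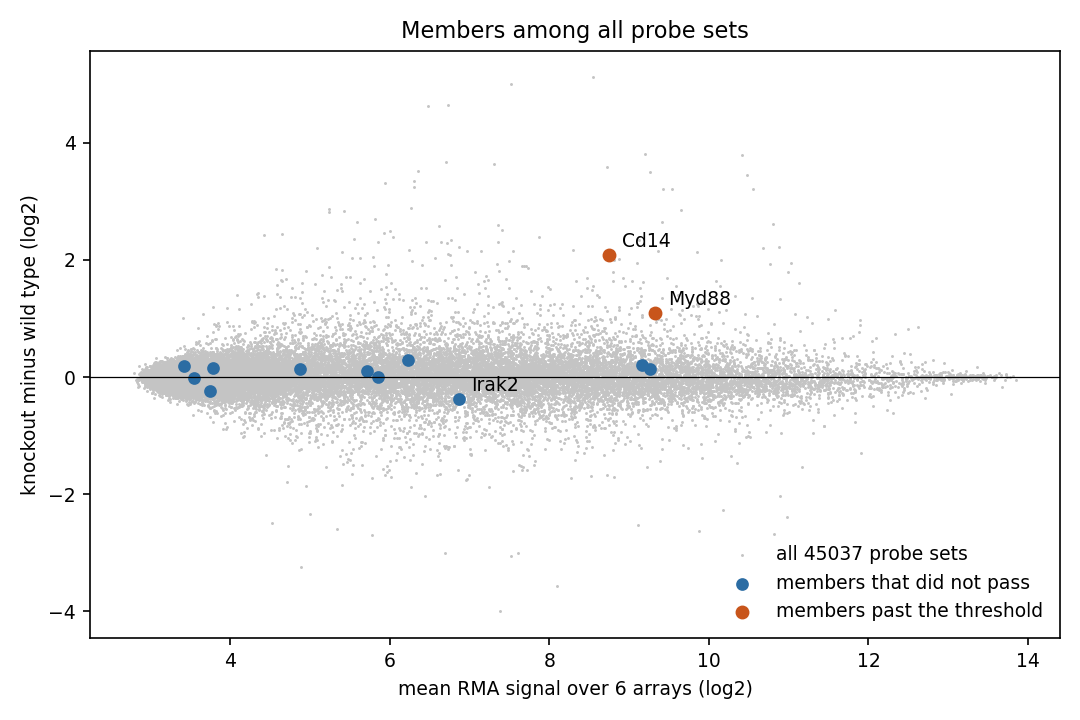
Knockout minus wild type (vertical axis, log2) against the mean signal over the 6 arrays (horizontal axis, log2) for all 45037 probe sets in grey, with the 13 probe sets of this layer in colour. Cd14 (2.09) and Myd88 (1.1) stand above the cloud of bright probe sets, and the other 11 lie inside it between -0.37 and 0.29.

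Genes whose 6 array values, each centred on the gene's own mean, lay nearest to those of Myd88 were Ptpn1, a tyrosine phosphatase (root mean square distance 0.08 on the log2 scale), the galactosyltransferase B4galt3 (0.09) and the lysosomal amino acid sensor Slc38a9 (0.10). Their differences were 1.14, 1.06 and 1.11. B4galt3 did not pass (limma adjusted p = 0.0713), and Ptpn1 passed on 1 of its 2 probe sets and Slc38a9 on 2 of 4. When each array was left out in turn, the brightest probe sets of Ptpn1 and Slc38a9 each passed in 1 of 6 fits. Nearest to Cd14 were glutathione reductase, Gsr (0.17), Mrc1 (0.19) and the RNA-binding protein Arid5a (0.21), with differences of 2.02, 2.31 and 2.15. The distances were taken over 6 arrays that share the group difference.

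The rest of the Toll-like receptor pathway was described from 8 lists of other genes. Of 84 measured, 2 rose and 7 fell, beside 1.08% and 0.591% of all genes, and 75 did not pass, with a median difference of 0.02. The 7 include Map3k7, the deleted gene, whose fall was set by the design. Among 16 receptors and accessory proteins Tlr12, a receptor for profilin, fell by 1.01 (SE 0.11, limma adjusted p = 0.00700). It read 5.23, 5.28 and 5.47 in wild-type and 4.40, 4.35 and 4.22 in knockout samples. Cd180, a Toll-like receptor homologue, fell by 0.82 (SE 0.14, limma adjusted p = 0.0438). When each array was left out in turn Tlr12 passed each time and Cd180 in 1 fit, that without knockout replicate 1. Of the list 0 genes rose (4 at an unadjusted p under 0.05), and its median was -0.04.

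Of 5 measured chains of the interleukin-1 and interleukin-18 receptors, which also signal through Myd88, 0 passed (2 at an unadjusted p under 0.05). Il18rap, the accessory chain of the interleukin-18 receptor, stood at 1.81 (SE 0.49, limma adjusted p = 0.156) and at 1.43 on its other probe set (limma adjusted p = 0.0837). It read 3.83, 3.91 and 4.39 in wild-type and 4.60, 6.15 and 6.80 in knockout samples. Its knockout replicate 1 was thus the lowest of its group, as for Myd88 but also for Cd14, Tlr2, Sigirr and Il10. Il1rap stood at 0.39 (limma adjusted p = 0.243).

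Of 16 inhibitors and editors of the pathway 0 passed (7 at an unadjusted p under 0.05), with a median of 0.12. The share of all genes under that unadjusted cut was not counted. Sigirr, a receptor that dampens signalling by Toll-like and interleukin-1 receptors, stood at 0.73 (SE 0.14, limma adjusted p = 0.0591) and read 6.64, 6.75 and 6.37 in wild-type and 7.16, 7.25 and 7.52 in knockout samples. Tnip1, a partner of the deubiquitinase Tnfaip3, stood at -0.75 (limma adjusted p = 0.0803). In both genes the groups did not overlap. Among 8 genes of the TAK1 complex and ubiquitin conjugation, Tifa, an adaptor that binds Traf6, rose by 0.58 (SE 0.09, limma adjusted p = 0.0270) and Map3k7 was the 1 that fell. Tifa did not pass when any 1 array was left out.

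Downstream, Relb was the 1 of 11 IKK and NF-kB genes that fell (-1.22, SE 0.15, limma adjusted p = 0.0125), and it did not pass without wild-type replicate 2 or knockout replicate 2. Nfkb2, which encodes its dimer partner, stood at -1.17 (limma adjusted p = 0.0588). At an unadjusted p under 0.05 this list held 4 genes, 0 higher and 4 lower. Of 7 genes of the Ticam1 branch 0 passed (1 at an unadjusted p under 0.05, median -0.02), with the adaptor Azi2 at 0.38 (limma adjusted p = 0.349) and the kinase Tbk1 at 0.14 (limma adjusted p = 0.72). Of 3 interferon regulatory factors that act with Myd88 0 passed (1 at an unadjusted p under 0.05), Irf8 standing at -0.59 (limma adjusted p = 0.121) and Irf5 at -0.06 (limma adjusted p = 0.908).

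Of 18 cytokines, chemokines and enzymes that Toll-like receptors induce, 1 rose and 3 fell (1 and 5 at an unadjusted p under 0.05). The anti-inflammatory cytokine Il10 rose by 2.83 (SE 0.16, limma adjusted p = 0.000452), from 3.92 to 4.12 in wild-type to 6.47 to 7.08 in knockout samples. The chemokines Cxcl9 and Cxcl10 fell by 1.54 and 1.31, and Il12b, a subunit of interleukin-12, fell by 0.90 (limma adjusted p = 0.0368). Il10, Cxcl9 and Cxcl10 passed whichever array was left out, and Il12b in 0 of those 6 fits.

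**Figure D5:**
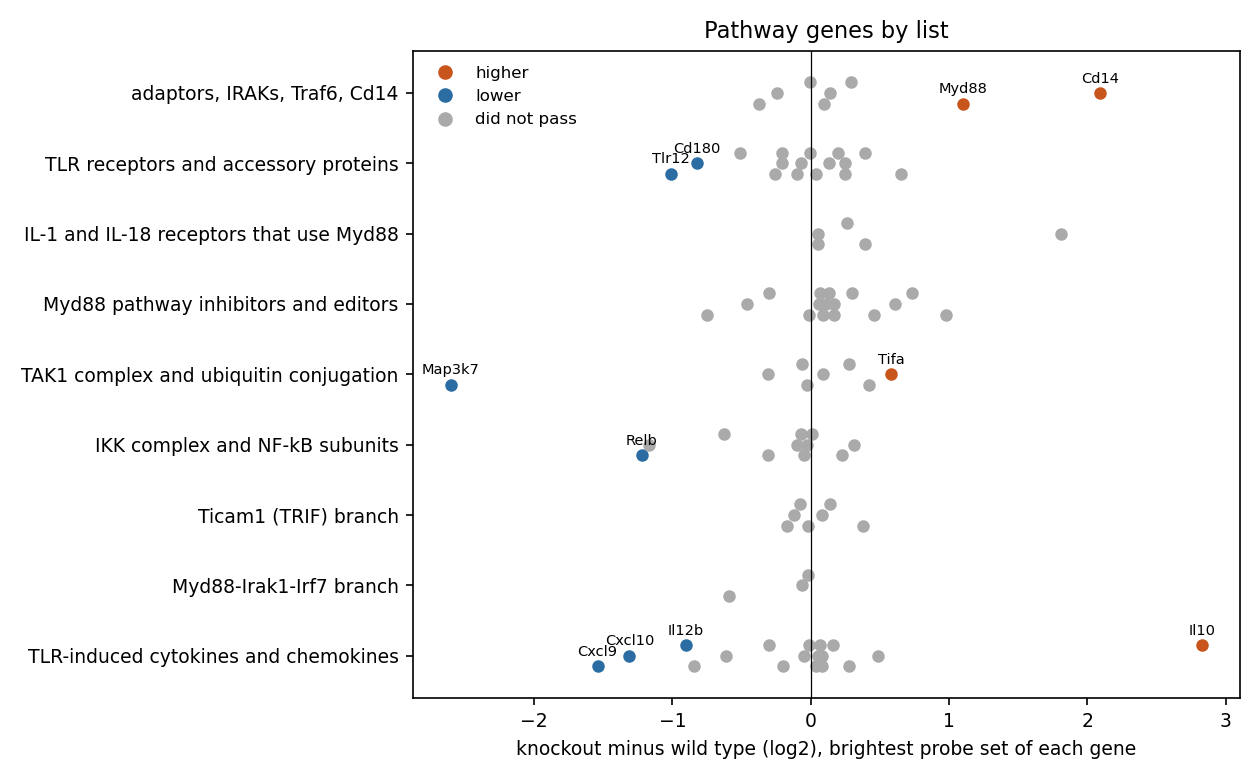
Knockout minus wild type on the log2 scale (horizontal axis) for the brightest probe set of each measured gene in 9 groups, the top row holding the 8 genes of this layer; vertical offsets within a row only separate points. Orange points passed as higher, blue points as lower and grey points did not pass, and the 4 orange points are Cd14 (2.09), Myd88 (1.1), Tifa (0.58) and Il10 (2.83). Some grey points lie further right than Tifa, among them Il18rap (1.81).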

How the data were processed

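The authors deposited log2 expression values. Per the submitters' processing notes, these were made by RMA (background correction, quantile normalization, 1 value per probe set) in Expression Console 1.1. They range from 2.58 to 13.9, and 0 pairs of arrays were identical. No genome build is named in the sources used here. Arrays give no depth or detection call, and their number limits the precision.

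Without 104 control probe sets, 45037 entered 1 linear model per probe set (limma 3.58.1 in R 4.3.3, lmFit and eBayes, no covariates, knockout minus wild type). Adjustment was by Benjamini-Hochberg over the whole table, with a threshold of 0.05. The fit was tested on simulated data. Symbols came from the platform annotation (28898 probe sets with 1 symbol, 551 with several, 15588 with none), and the brightest probe set on average stood for a gene. Members and lists were chosen with earlier results of these data known. All members were named, and from each pathway list at most 4 called genes by smallest p, or the 2 genes with the smallest p where fewer than 2 were called. From each cell type list up to 3 genes by p and 3 by level could be named; further markers were chosen after their values were seen. Alternatives were another centring or normalization, a level filter, no probe sets shared between transcripts, trended, robust and weighted fits, the replicate block, other thresholds, means of probe sets, and leaving out each array. Promoters and figures used Python 3.11.15 and matplotlib 3.10.9.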

Additional observations from a re-analysis of the deposited data

How the results depend on the processing

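With all 6 arrays, Cd14 and Myd88 passed at 0.05 under each of 8 other settings of the fit. Their differences were 1.98 to 2.10 for Cd14 and 1.04 to 1.11 for Myd88, with limma adjusted p up to 0.00863 and 0.0464. Both also passed as means of probe sets, but each has 1 probe set, so its own values were the same there. At an adjusted p under 0.01, 1 member probe set passed. With 1 array left out, 0 to 2 of the 13 passed in limma (0 without knockout replicate 2, where 3 had an unadjusted p under 0.05), Cd14 standing at 1.82 to 2.27 and Myd88 at 0.95 to 1.32. No other member passed under any setting run. Small values changed sign: Ticam1 was 0.00714 with arrays centred, 0.03 with array weights and from -0.07 to 0.06 with 1 array left out, and the dimmer Irak3 probe set was 0.00337 with arrays centred, 0.0021 with quantile normalization and from -0.10 to 0.06 with 1 array left out. Traf6 ran from -0.11 (without wild-type replicate 2) to 0.21. Over all probe sets 538 passed, 356 without those that can match several transcripts (fewer were tested), 1156 at 0.10, 134 at 0.01, and 125 to 860 with 1 array left out; 2 to 3 Map3k7 probe sets passed in those last fits.

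With the replicate number as a block 993 probe sets passed, and the same 2 member probe sets. The numbers were not taken as pairs, because nothing in the labels says that they pair samples. Deviations of same-numbered samples correlated at 0.08, 0.15 and 0.37. Knockout replicates 2 and 3 correlated best with the wild-type sample of the same number, and knockout replicate 1 with wild-type replicate 2 (0.28). Signal over background limits Irak3, Tlr4 and the dim Traf6 probe sets.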
